A study of Caenorhabditis elegans with 51 samples.

Results

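The libraries described here are xe31 animals at 3, 4 and 5 h after a temperature shift, set against wild-type (WT) animals at 3, 4 and 5 h. They were chosen by strain and hour from the sample labels and are 6 of the 22 libraries of a time course, in a series of 51 samples. The xe31 animals are strain HW1660, which carries xrn-2(xe31), a temperature-sensitive allele of xrn-2, and the WT animals are N2. Whole Caenorhabditis elegans larvae of both strains grew at 15 °C for 59 h, until early L4, and were then moved to 26 °C and collected each hour until late L4, so the WT libraries went through the same warming as the xe31 libraries. Polyadenylated RNA was sequenced, with 1 library per strain and hour. The 3 hours therefore serve as the 3 pairs, neighbouring hours are not independent, and a p-value can speak only of the variation among these libraries.

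XRN2, the product of xrn-2, is a nuclear exonuclease that degrades RNA from its 5′ end. In the torpedo model of transcription termination, it attacks the RNA that RNA polymerase II keeps making after the transcript has been cleaved at its polyadenylation site, and helps the polymerase to leave the DNA. When termination fails, RNA from beyond the gene's end, called readthrough, accumulates. L4, the last larval stage, is also a time of fast programmed change in C. elegans: the germline makes sperm, and the epidermis prepares the next cuticle with waves of collagen and molting gene expression.

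The xe31 libraries held 41747138 to 45238028 gene counts each and the WT libraries 41238235 to 44215178. Counts in the window downstream of genes, the measure of readthrough, came to 517593 to 564678 per xe31 library and 448148 to 506479 per WT library. Between 18617 and 18897 genes were detected in xe31 and between 18277 and 18504 in WT. No 2 libraries held identical values. Of the lists that mark tissues, 32 body wall muscle, 26 intestine, 35 neuron, 79 sperm and 161 cuticle collagen genes passed the filter on low counts, so the RNA came from many tissues, as the label of whole bodies says. In whole animals, more cells of a type and more RNA per cell cannot be told apart.

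The xe31 libraries of these hours stood ahead of WT by the correlation of their expression. Across 13846 genes, the log2 expression of xe31 at 4 h correlated most with WT at 5 h (Pearson r of 0.989) and that of xe31 at 5 h most with WT at 6 h (r of 0.993), while xe31 at 3 h correlated most with WT at 3 h (r of 0.990). Interpolated between hours, the xe31 libraries at 3, 4 and 5 h stood at WT positions of 3.48, 4.61 and 5.63 h, which is 0.483, 0.613 and 0.628 h ahead of their own hour. At 1, 2 and 6 to 9 h, xe31 stood 0.091 to 0.335 h ahead. At 0 and 10 h the best WT hour was an end of the course, so no position was interpolated. Genes are not independent replicates, so these correlations describe the libraries and carry no test. With 1 library per strain and hour, a strain difference and a difference in developmental position cannot be told apart at a single hour. The main results are therefore set beside the same fit against WT 1 h earlier and against WT 1 h later. A further fit against WT 0.5 h later, the mean of the WT libraries of the same and the next hour, was chosen after the data had been seen.

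**Figure D1:**
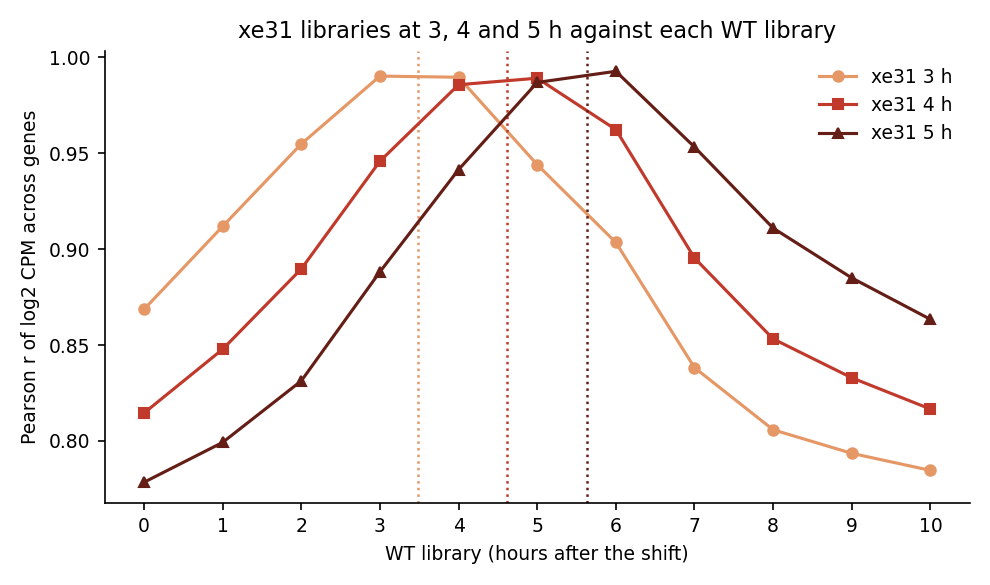
Pearson correlation of log2 CPM (counts scaled to library size) across 13846 genes (vertical axis) between the xe31 libraries at 3, 4 and 5 h (lines) and each WT library from 0 to 10 h (horizontal axis). Dotted lines mark the interpolated WT positions of 3.48, 4.61 and 5.63 h.

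The RNA of xrn-2 (WBGene00006964) itself was more abundant in xe31. In counts scaled to library size (CPM), it stood at 156.43, 215.96 and 206.43 CPM in xe31 at 3, 4 and 5 h, against 111, 121 and 114 CPM in WT. The groups did not overlap, and the WT libraries at 2 and 6 h were at 108.3 and 113.3 CPM, so this gene moved little in WT over these hours. The log2 change was 0.73 ± 0.09 (SE), with an adjusted p of 0.000971 in edgeR's quasi-likelihood test with Benjamini-Hochberg (BH) adjustment, and 0.75 and 0.72 against WT 1 h earlier and later. Without the hour term that pairs the strains it was 0.74 and no longer passed. The label gives xe31 as a temperature-sensitive allele, and a temperature-sensitive protein need not change its RNA. The downstream window of xrn-2 held 4, 6 and 9 counts in xe31 and 1 count at each hour in WT, with a ratio of 3.45 and an exact 95% counting interval of 1.02 to 18.2, and did not pass the test (adjusted p of 0.311, edgeR with BH).

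Genes that work beside XRN2 mostly stayed below the threshold. Over all 17123 genes tested, 15.2% were called at an adjusted p of 0.05 in either direction (edgeR with BH). Of 7 tested genes of the XRN family and its partners, 2 rose and none fell: xrn-2 and xrn-1, the cytoplasmic 5′-3′ exonuclease. xrn-1 had 106.5, 120.4 and 85.8 CPM in xe31 and 74.2, 82.6 and 64.7 CPM in WT, and both genes were called under all 3 choices of WT hour. Of 23 tested genes for 3′-end processing and termination, 2 rose and 1 fell. The risen ones were clpf-1, a cleavage factor subunit, and pcf-11, which binds the polymerase's tail, and the fallen one was suf-1, a cleavage stimulation factor subunit. clpf-1 had 39.9, 55.5 and 72.5 CPM in xe31, against 35.5, 32.8 and 31.3 CPM in WT, a log2 change of 0.72 ± 0.14 (adjusted p of 0.00715, edgeR with BH). It was the member of that list called under all 3 choices of WT hour. In the nuclear exosome list, emb-4 rose and exos-1 fell among 16 tested, and in the Integrator complex, which cleaves nascent RNA, ints-3 rose among 11 tested. None of these 3 was called against WT 1 h later, though their log2 changes stayed close. For emb-4, exos-1 and ints-3 they were 0.153, -0.245 and 0.354 at the same hour. Against WT 1 h later they were 0.154, -0.214 and 0.311.

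At the same hour, 1713 genes rose and 888 fell in xe31 (15.2% of 17123), of which 380 rose and 56 fell by more than 2-fold. Most of these genes were already moving in that direction in WT. Of the 1713 risen genes, 91.1% rose in WT itself between 2 and 6 h, with a median WT change of 2.61 on the log2 scale, against 50.1% of all genes tested. Of the 888 fallen genes, 85.7% fell in WT between 2 and 6 h, against 49.9% of all genes. The number of calls differed with the choice of the WT hour. Each choice has its own fit and estimate of the spread, so a call can be lost without a change in effect. For emb-4 the log2 change was 0.153 at the same hour and 0.154 against WT 1 h later, with adjusted p of 0.0336 and 0.183 (edgeR with BH). Set against WT 1 h earlier, 2548 genes rose (14.9%) and 1563 fell (9.13%), 24% in all. With WT 0.5 h later 424 rose (2.48%) and 179 fell (1.05%), 3.52% in all, and with WT 1 h later 272 rose (1.59%) and 190 fell (1.11%), 2.7% in all. Of the 1713 genes called higher at the same hour, 1038 had the opposite sign against WT 1 h later, and 167 were called higher there too. A fit on the 6 libraries alone, with fewer libraries to estimate the spread, called no gene (2378 rose and 1676 fell at an unadjusted p of 0.05, edgeR), and without the 4 h pair 663 rose and 140 fell. Without the hour term that pairs the strains, 57 rose and 2 fell. Under all 3 planned choices (same hour, 1 h earlier, 1 h later), 133 genes rose (0.777% of those tested) and 16 fell (0.0934%).

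**Figure D2:**
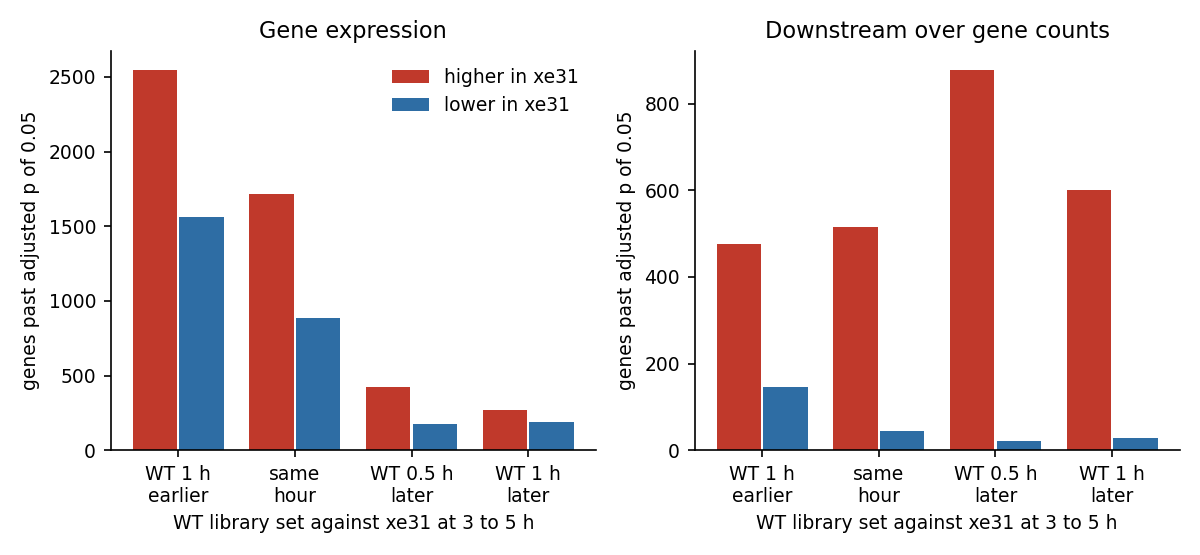
Genes past an adjusted p of 0.05 (vertical axis, edgeR with BH) with higher or lower values in xe31 at 3 to 5 h, by the WT library they were set against (horizontal axis), for gene expression (left, 17123 genes) and for downstream over gene counts (right, 11263 genes). Expression calls stood at 272 higher and 190 lower against WT 1 h later, while calls of a higher downstream ratio stood at 600 there.

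Sperm genes had more same-hour rises than any other list examined. Of 79 tested, 40 rose and none fell, where 10% of all genes tested rose and 5.19% fell, with a median log2 change of 0.45, against 0.00 over all genes. The same genes had a median rise of 2.53 in WT between 2 and 6 h. spe-11, a sperm factor needed in the early embryo, had 14, 29.1 and 54.4 CPM in xe31 and 7.16, 17.5 and 36.1 CPM in WT. At each hour the xe31 value lay above WT, and at 3 and 4 h it lay below the WT value of the next hour. Its log2 change of 0.75 at the same hour became -0.18 against WT 1 h later. No sperm gene was called higher against WT 1 h later and 2 were called lower, with a list median of -0.29, where 1.59% of all genes were called higher and 1.11% lower. The oocyte and eggshell list, whose WT median rose by 1.63 between 2 and 6 h, had 3 risen genes among 28, a share near the 10% of all genes, and against WT 1 h later none rose and 8 fell. None of the 6 vitellogenins, the yolk protein genes, was called at the same hour, and 3 were lower against WT 1 h later.

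Cuticle and molting genes gave both rises and falls. Of 161 cuticle collagens tested, 36 rose and 7 fell at the same hour, against 10% and 5.19% of all genes. col-129 had 51.6, 710 and 2105 CPM in xe31, against 21.6, 195 and 1288 CPM in WT, and each xe31 value lay below the WT value of the next hour. Its log2 change was 1.27 ± 0.18 at the same hour (adjusted p of 0.00193, edgeR with BH) and -1.05 against WT 1 h later. With WT 1 h later, 13 collagens rose and 2 fell, against 1.59% and 1.11% of all genes, and col-41, col-86, col-171 and dpy-14 were called higher under all 3 choices of WT hour. Among 37 astacin metalloproteases, enzymes that process cuticle proteins, 7 rose and 1 fell at the same hour. toh-1 had 7.37, 40.6 and 129.4 CPM in xe31 and 3.37, 11.2 and 79.7 CPM in WT, and its change of 1.21 also turned negative (-0.53) against WT 1 h later.

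Of 37 molting enzymes, factors and regulators, 1 rose and 8 fell, against 10% and 5.19% of all genes, with a list median of -0.25. lin-42, the period homologue that times molts, had 268, 132 and 57.0 CPM in xe31 and 393, 247 and 83.1 CPM in WT, where it was itself falling. Against WT 1 h later the list's median was 0.26, with 7 genes risen and none fallen, against 1.59% and 1.11% of all genes. Among 55 hedgehog-related genes, 4 rose and 8 fell, and qua-1, a member needed for molting, had 623, 185 and 69.5 CPM in xe31 and 953, 394 and 92.2 CPM in WT. Its log2 change was -0.71 at the same hour and 0.79 against WT 1 h later.

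Ribosomal protein, histone and chaperone genes had more falls than rises at the same hour, where 5.19% of all genes fell and 10% rose. Of 78 ribosomal protein genes, 18 fell and 1 rose, with a median of -0.14. That median was 0.00 against WT 1 h later, where none was called. Histones had 12 falls and no rise among 33 tested, with a median of -0.31. These 33 are those of 81 histone genes that passed the filter on low counts. Polyadenylated RNA was sequenced, so their counts need not reflect histone RNA without a poly(A) tail. his-4, for which near-identical copies may share reads, had 7.64, 4.095 and 2.13 CPM in xe31 and 12.62, 12.72 and 4.76 CPM in WT. Histones had 1 fall and no rise against WT 1 h later, with a median of -0.13. Of 17 chaperones of the endoplasmic reticulum and mitochondria, 5 fell and none rose, and no member was called against WT 1 h later. Among 14 cytosolic heat shock genes, 2 rose and 1 fell, with a median of -0.03, and none was called against WT 1 h later.

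The muscle, intestine and neuron lists each had a smaller share of calls than the 15.2% of all genes called in either direction. Among 32 body wall muscle genes 1 fell, among 26 intestine genes 1 fell, and among 35 neuron genes 1 rose and 3 fell. None of 32 DNA replication and cell cycle genes was called in edgeR's test, and none of the 23 ribosome biogenesis genes. Of 57 transthyretin-related genes, 10 rose, a share above the 10% of all genes, and none fell; of these ttr-20 was called under all 3 choices of WT hour.

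In the large families, 18 of 171 C-type lectins rose and 11 fell, and 10 of 97 lysozymes and antimicrobial peptides rose and 9 fell, in both cases a larger share of calls than the 15.2% of all genes. The share was smaller than 15.2% for the F-box genes (8 rises and 10 falls among 191), the nuclear hormone receptors (4 and 7 among 215) and the chemoreceptors (18 and 2 among 304). Of 68 cytochrome P450 genes 5 rose and 6 fell, and cyp-25A4, cyp-29A4 and cyp-33D3 were called higher under all 3 choices of WT hour. Among 48 glutathione S-transferases 1 rose and 7 fell, and among 24 aspartyl and cysteine proteases 6 fell, where 10% of all genes rose and 5.19% fell. Against WT 1 h later, none of these transferases and 1 of these proteases fell, with list medians of -0.016 and 0.026, where 1.11% of all genes fell. In the germline lists, 3 of 30 P granule and Argonaute genes rose, and 2 of 27 meiosis genes rose and 1 fell.

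Of 61 cilium genes tested, 7 rose, a share near the 10% of all genes, and none fell. The genes bbs-4, nphp-1, osm-3 and osm-12, 4 of the 7, were called higher under all 3 choices of WT hour, as were 0.777% of all genes. These 4 were picked out after their values had been seen. nphp-1, a protein of the ciliary base, had 2.51, 5.35 and 10.1 CPM in xe31 and 0.848, 0.728 and 0.929 CPM in WT. Its level in WT stayed between 0.592 and 0.929 CPM at every hour from 0 to 10 h. The log2 change of nphp-1 was 2.71 ± 0.32 (adjusted p of 0.000971, edgeR with BH) and 2.75 against WT 1 h later. osm-3, the kinesin motor of cilia, had 9.58, 9.49 and 11.9 CPM in xe31, against 6.68, 6.02 and 5.53 CPM in WT. The neuron list's single rise was tph-1, the serotonin synthesis enzyme, at 2.44, 2.60 and 3.12 CPM in xe31 and 1.47, 1.00 and 1.29 CPM in WT. The median over all 61 cilium genes was 0.06.

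The 133 genes that rose under all 3 choices of WT hour included both rising and falling genes in WT itself. Of these genes, 60.9% rose in WT between 2 and 6 h, and their median WT change was 0.05. In 92.5% of the 133, all 3 xe31 libraries lay above all 5 WT libraries from 2 to 6 h, against 2.76% of all genes tested. That non-overlap is partly fixed by how the 133 were chosen, so it is a description.

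Among those of the 133 whose log2 CPM averaged 2 or more, the largest rise was that of nrps-1, which encodes a nonribosomal peptide synthetase. It had 14.7, 20.96 and 25.98 CPM in xe31 and 2.74, 3.09 and 4.05 CPM in WT. The log2 change was 2.63 ± 0.17 (adjusted p of 3.6e-05, edgeR with BH), against 3.05 and 2.47 with WT 1 h earlier and later. nrps-1 was already called at 0 to 2 h (2.25) and stood at 3.16 at 6 to 10 h.

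phlp-2, a phosducin-like protein gene, had 6.98, 9.86 and 14.2 CPM in xe31, against 3.27, 2.16 and 0.810 CPM in WT. The strains moved in opposite directions over these hours, and the difference between the strain effect at 5 h and at 3 h passed the test (3.03, adjusted p of 0.00622, edgeR with BH). jip-1, a scaffold of JNK signalling, had 24.7, 41.02 and 40.04 CPM in xe31 and 8.45, 7.40 and 7.22 CPM in WT, a log2 change of 2.17 ± 0.19 (adjusted p of 0.000241, edgeR with BH). trp-4, a touch-sensing ion channel of neurons, had 4.195, 7.46 and 8.46 CPM in xe31 and 2.32, 2.53 and 2.45 CPM in WT. Its log2 change was 1.42 in the middle hours and 2.91 at 6 to 10 h, and it was not called at 0 to 2 h.

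ceh-99, a homeobox gene, had 9.80, 17.2 and 23.8 CPM in xe31 and 2.87, 3.61 and 5.19 CPM in WT. scrm-4, a phospholipid scramblase gene, had 15.4, 18.1 and 17.3 CPM in xe31 and 5.26, 6.75 and 8.31 CPM in WT. Both were also called at 0 to 2 h. The other 4 of the 10 largest rises at that level were C50F7.5, col-41, citk-1 and ttr-20, with log2 changes of 1.51, 1.43, 1.30 and 1.24. Of these 10 genes, C50F7.5 and col-41 were not called at 6 to 10 h. In all 10, the 3 xe31 libraries lay above every WT library from 2 to 6 h, as they did for 2.76% of all genes tested. These genes were chosen on the same libraries, so that non-overlap is partly fixed and is a description.

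**Figure D3:**
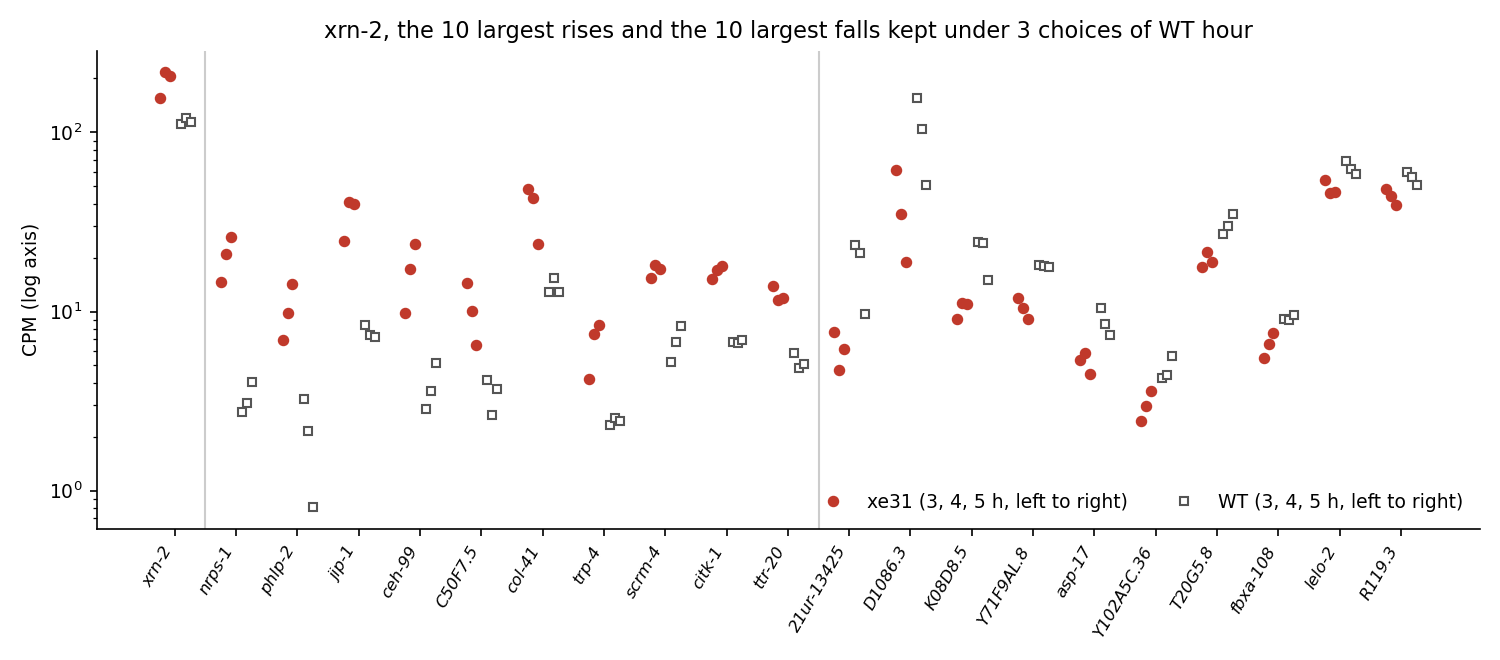
CPM on a log axis in each xe31 library (filled circles, 3, 4 and 5 h from left to right) and each WT library (open squares, same order) for xrn-2, the 10 largest rises and the 10 largest falls among genes whose log2 CPM averaged 2 or more and that were called under 3 choices of WT hour. For nrps-1 the 3 xe31 libraries lie between 14.7 and 25.98 CPM and the 3 WT libraries between 2.74 and 4.05 CPM.

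Falls under all 3 choices of WT hour were few. Of the 16 genes, 10 averaged 2 or more in log2 CPM. D1086.3 had 61.6, 34.9 and 18.8 CPM in xe31 and 154.9, 104.2 and 50.7 CPM in WT, a log2 change of -1.45 ± 0.18 (adjusted p of 0.00123, edgeR with BH). D1086.3 was also falling in WT, to 24.3 CPM at 6 h, and its change shrank to -0.56 against WT 1 h later. K08D8.5 had 9.12, 11.1 and 10.99 CPM in xe31 and 24.3, 24.1 and 15.1 CPM in WT, and was not called at 0 to 2 h or at 6 to 10 h. asp-17, an aspartyl protease gene, had 5.38, 5.83 and 4.49 CPM in xe31 and 10.4, 8.51 and 7.38 CPM in WT, and was called lower in the early and late hours too. The largest fall among the 10, -1.49, was read from a short piRNA locus, 21ur-13425, where reads of an overlapping gene cannot be told apart. The other 6 (Y71F9AL.8, Y102A5C.36, T20G5.8, fbxa-108, lelo-2 and R119.3) changed by -0.78 to -0.34.

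Hour by hour, expression calls were most numerous at 4 h. At 3 h 524 genes rose (3.06%) and 0.736% of those tested fell, 3.8% in all. At 4 h 586 rose (3.42%) and 1.35% fell, 4.77% in all, and at 5 h 180 rose and 37 fell (1.27%). Each hour has 1 pair, assumed to vary like the pairs of the other hours. The calls of single hours overlapped in part: 228 rises were shared by 3 h and 4 h, 91 by 4 h and 5 h, and 26 by all 3 hours, out of 970 risen at any of them. The strain effect at 5 h was higher than that at 3 h for 16 genes and lower for 5 (0.123%). Against WT 1 h later, no gene was called at 3 h (593 rose and 658 fell at an unadjusted p of 0.05), while 11 rose and 14 fell at 4 h and 25 rose and 4 fell at 5 h.

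The strain effect at 3 to 5 h differed from that of the early hours for few genes and from that of the late hours for many. It was higher than at 0 to 2 h for 8 genes (0.0467%) and lower for 35 (0.204%), 0.251% in all, and against WT 1 h later it was higher for 171 and lower for 75. Among the 8 were the collagens col-179, col-124, col-122 and col-20. For col-124 the log2 change was -1.02 at 0 to 2 h and 1.05 at 3 to 5 h, both past the test, and its levels were 95.8, 1096 and 2261 CPM in xe31 and 40.5, 379 and 1741 CPM in WT at 3, 4 and 5 h. The effect at 6 to 10 h was higher for 1249 genes (7.29%) and lower for 2050 (12%), 19.3% in all. Of the 1713 genes risen at 3 to 5 h, 808 (47.2%) were risen at 0 to 2 h and 591 (34.5%) at 6 to 10 h. Of all genes tested, 6.61% were risen at 0 to 2 h and 16.8% at 6 to 10 h.

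Readthrough was measured as the ratio of counts in a gene's downstream window to counts in the gene itself. Summed over the genes of the window table, xe31 had 1.23, 1.33 and 1.41 downstream counts per 100 gene counts at 3, 4 and 5 h, against 1.09, 1.17 and 1.31 in WT. xe31 was higher at each hour, by 0.16 ± 0.04 on the log2 scale (SD, n = 3 pairs). The exact sign-flip test gave a p of 0.25, the smallest that 3 pairs allow. The WT sum rose over these hours as well, and against WT 1 h later the difference was 0.08. With upstream counts in place of gene counts as the reference, it was -0.05, so the sum did not separate the strains on that scale.

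The sum mixes genes that were called at later hours with genes that were not. Among 11263 genes tested, 5413 had a higher ratio in xe31 at 6 to 10 h (edgeR with BH). Those 5413 genes, chosen on later libraries, had 0.260, 0.283 and 0.390 downstream counts per 100 gene counts in xe31 at 3, 4 and 5 h, against 0.187, 0.201 and 0.214 in WT. Each of these xe31 values lay above every WT library from 0 to 5 h, which ranged between 0.166 and 0.214. The WT libraries at 6 to 10 h helped to choose the genes and are left out of that range. The mean difference was 0.61 ± 0.22 on the log2 scale (SD, n = 3 pairs, exact sign-flip p of 0.25), and 0.54 against WT 1 h later. That second value takes in WT at 6 h, which helped to choose the genes, so it is not free of the choice. Its other pairs set xe31 at 3 and 4 h (0.260 and 0.283) against WT at 4 and 5 h (0.201 and 0.214). At 0, 1 and 2 h the same genes stood at 0.209, 0.210 and 0.218 in xe31 and 0.183, 0.167 and 0.166 in WT. The 5574 genes not called at 6 to 10 h had 4.79, 5.19 and 5.499 per 100 in xe31 and 4.32, 4.79 and 5.46 in WT.

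**Figure D4:**
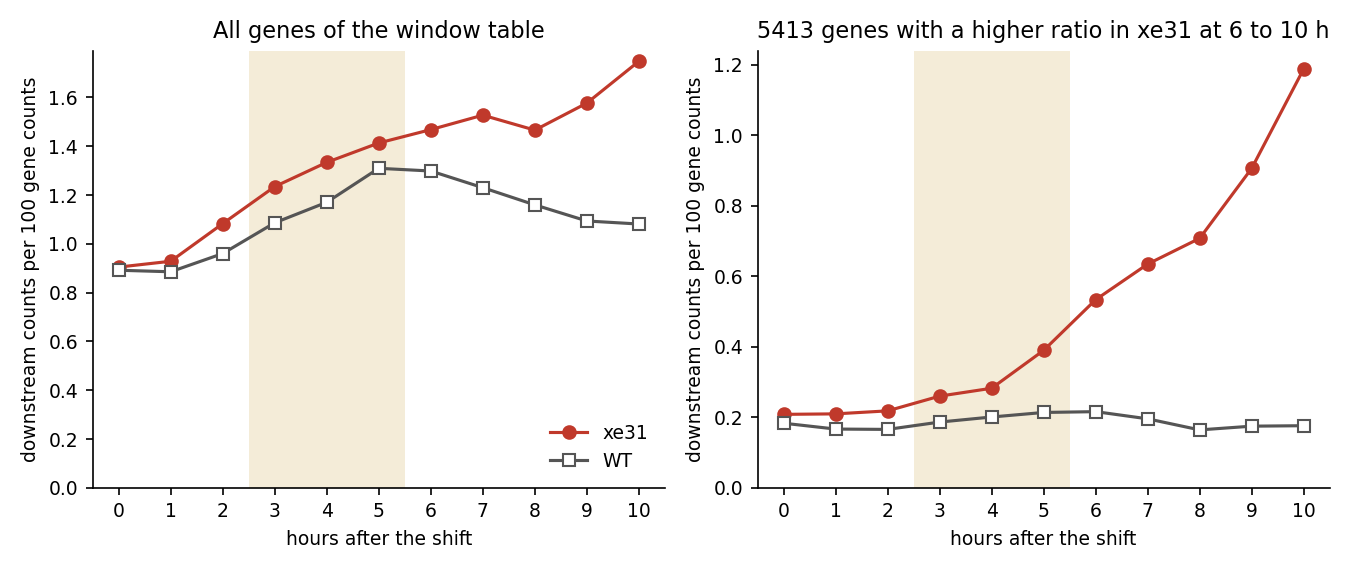
Downstream counts per 100 gene counts (vertical axes) by hour after the shift (horizontal axes) in xe31 (filled circles) and WT (open squares), 1 library a point, with 3 to 5 h shaded. All genes of the window table are summed on the left (1.23, 1.33 and 1.41 in xe31 and 1.09, 1.17 and 1.31 in WT at 3, 4 and 5 h), and the 5413 genes with a higher ratio in xe31 at 6 to 10 h on the right (0.390 in xe31 and 0.214 in WT at 5 h).

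Gene by gene, 516 genes had a higher ratio (4.58%) and 44 a lower one (0.391%) in xe31 at 3 to 5 h, 4.97% of 11263. The median log2 change over all tested genes was 0.28, and 0.27 when the 406 genes with no downstream count in one strain were set at their bound and 1497 genes with at most 3 counts in each strain were left out. With another WT hour, 476 genes had a higher ratio against WT 1 h earlier (4.23%, and 5.52% called in either direction), 878 against WT 0.5 h later (7.8% and 7.99%) and 600 against WT 1 h later (5.33% and 5.58%). Without the hour term 239 genes rose and 4 fell, without the 5 h pair 195 rose and without the 4 h pair 278, and with upstream counts in place of gene counts 89 of 1698 tested genes rose and 56 fell. Of the 516, 80.4% were also called against WT 1 h later and none was called in the opposite direction. Under all 3 choices of WT hour, 283 genes rose (2.51%) and 6 fell (0.0533%).

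Calls of a higher ratio were more numerous at each later hour. At 3 h 30 genes had a higher ratio and 2 a lower one (0.284% called), at 4 h 70 and 5 (0.666%), and at 5 h 1.94% of genes were higher and 6 genes lower (1.99%). The median log2 change over all genes was 0.12, 0.22 and 0.38 at 3, 4 and 5 h. Over the 5413 genes called at 6 to 10 h, 60.7%, 64.4% and 76.3% had a positive change at 3, 4 and 5 h. Of the 70 genes called at 4 h, 59 were called at 5 h, and 19 were called at all 3 hours. The difference between 5 h and 3 h passed the threshold for no single gene in edgeR's test (315 upward and 131 downward at an unadjusted p of 0.05). Likewise, no gene passed for the middle against the early hours (410 upward and 174 downward at an unadjusted p of 0.05), while 724 genes had a still higher ratio at 6 to 10 h than at 3 to 5 h (6.43%) and 66 a lower one (0.586%), 7.01% in all. Of the 516 genes called higher at 3 to 5 h, 474 (91.9%) were called higher at 6 to 10 h, against 48.1% of all genes tested. Those 474 are 8.76% of the genes called higher at 6 to 10 h. At 0 to 2 h, 99 genes had a higher ratio (0.879% of those tested), of which 75 were among the 516. The windows share an estimate of the spread, so these overlaps carry no test.

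For the largest rises the downstream window was nearly empty in WT. Ranking by the change, with a minimum count asked of xe31 only, favours such genes, so this is a description. dpy-4, a cuticle collagen, had 57, 68 and 57 downstream counts in xe31 at 3, 4 and 5 h and 0 at each hour in WT. No WT library from 0 to 10 h had a count there, while xe31 had 4, 11 and 34 at 0, 1 and 2 h. Its gene counts were high in both strains (333239 summed over the 3 xe31 libraries and 382709 over the 3 WT libraries), so the ratio was at least 69.7-fold higher in xe31, against a floor of 3 counts over the group. apm-1, a clathrin adaptor subunit, had 58, 61 and 61 downstream counts in xe31 and 0 at each hour in WT, at least 58.9-fold higher. far-5, a fatty acid and retinol binding protein gene, had 12, 41 and 61 in xe31 and 0 at each hour in WT. In xe31 at 0, 1 and 2 h far-5 had 3, 1 and 3 counts, so most of its readthrough was counted from 3 h on.

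col-125 had higher counts. It had 92, 211 and 369 downstream counts in xe31, against 2, 1 and 0 in WT. Over the 3 hours the ratio was 184-fold higher in xe31, with an exact 95% interval of 62.8 to 896 that covers counting error only. In xe31 at 0, 1 and 2 h col-125 had 4, 2 and 13 counts. Its gene level did not pass the expression test (log2 change of 0.23, adjusted p of 0.439, edgeR with BH). trpp-11, a subunit of a vesicle tethering complex, had 15, 23 and 40 downstream counts in xe31 and 0 at each hour in WT, at least 20.4-fold higher.

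The other named rises were col-97, fipr-2, col-145, lro-1, F59E12.9, T02E1.7, srh-269, col-94, F22B5.6 and col-169. Their WT libraries held no downstream count in the 3 hours, except for 1 count for col-94. For the 9 without any, the ratio was at least 11.9-fold to at least 47.2-fold higher in xe31. All 15 named rises were called under all 3 choices of WT hour. For col-94 the gene itself held 55 counts in xe31 and 27 in WT, against 441 downstream counts in xe31 and 1 in WT. None of the 15 is shown to differ between the middle and the early hours by the test of that difference.

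**Figure D5:**
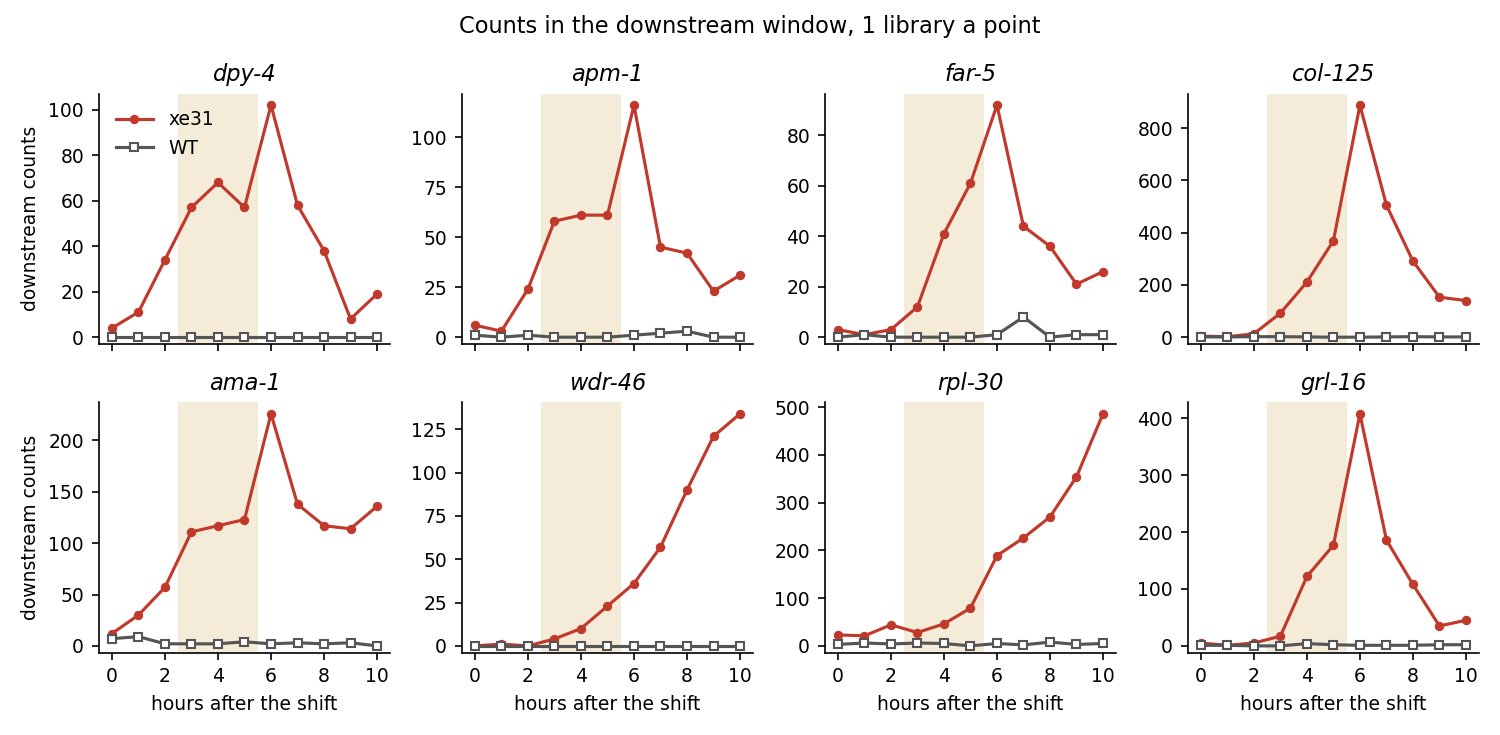
Raw counts in the downstream window (vertical axes) by hour after the shift (horizontal axes) in xe31 (filled circles) and WT (open squares), 1 library a point, with 3 to 5 h shaded. At 5 h dpy-4 had 57 counts in xe31 and 0 in WT, far-5 61 and 0, col-125 369 and 0, wdr-46 23 and 0, and rpl-30 79 and 0; dpy-4, apm-1, far-5 and col-125 are among the largest rises, while ama-1, wdr-46, rpl-30 and grl-16 are examples picked after their values were seen.

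Cuticle collagens were the list with most readthrough calls: 39 of 128 tested had a higher ratio and 1 a lower one, and 25 were called higher under all 3 choices of WT hour. Of all genes tested, 4.58% were called higher at the same hour and 2.51% under all 3 choices. dpy-5, another collagen picked after its values were seen, had 232, 239 and 188 downstream counts in xe31 and 2, 9 and 7 in WT. Against WT 1 h later 40 collagens were called higher, so this count did not shrink as the collagen expression calls did.

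Genes of the translation machinery had readthrough too. Of 61 ribosomal protein genes tested 10 had a higher ratio, and of 20 ribosome biogenesis genes 5, and none a lower one. All 15 were called under all 3 choices of WT hour. Of all genes tested, 4.58% had a higher ratio at the same hour and 2.51% under all 3 choices. Among the genes with most WT gene counts, 1 of 4 groups of equal size, 9.09% had one at the same hour. rpl-30, a large-subunit protein, had 28, 46 and 79 downstream counts in xe31 and 6, 5 and 0 in WT, with gene counts of 100020 in xe31 and 93625 in WT over the 3 hours. wdr-46, a ribosome biogenesis factor, had 4, 10 and 23 in xe31 and 0 at each hour in WT, and no WT library of the course had a count there. Of 35 hedgehog-related genes 7 had a higher ratio at the same hour, 2 of them under all 3 choices. Against WT 1 h later 2 of the 35 had one, where 5.33% of all genes did. grl-16 had 17, 122 and 177 downstream counts in xe31 and 0, 4 and 2 in WT. Neither rpl-30, wdr-46 nor grl-16 passed the expression test at the same hour.

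ama-1, which encodes the largest subunit of RNA polymerase II, also had readthrough, with 1.496, 1.31 and 1.83 downstream counts per 100 gene counts in xe31 at 3, 4 and 5 h and 0.0325, 0.0301 and 0.0664 in WT. Over the 3 hours that is 351 downstream counts in xe31 and 8 in WT. Its log2 change of the ratio was 5.13 ± 0.51 (adjusted p of 1.33e-07, edgeR with BH) and 5.28 against WT 1 h later.

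Sperm genes had readthrough calls at about the 4.97% of all genes: of 59, 2 had a higher ratio and 1 a lower one. Higher ratios were also called for 2 of 12 chaperones of the endoplasmic reticulum and mitochondria, 3 of 26 P granule and Argonaute genes and 2 of 20 meiosis genes, against 4.58% of all genes. Of 84 neuropeptides 3 had a higher one, and of 48 homeobox, 41 cilium and 24 muscle genes none was called (edgeR). None of the 15 tested 3′-end processing genes and none of the 6 tested XRN family genes passed. Calls were more frequent at higher depth: in 4 groups of equal size by rising WT gene count, 1.31%, 2.63%, 5.29% and 9.09% of genes were called higher, and by rising downstream count over the 6 libraries 0.0355%, 2.31%, 7% and 8.98%. The share among collagens stands beside the 9.09% of the group with most gene counts. How much of the difference between lists follows depth was not tested.

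Few genes had a lower ratio, and part of these rested on the gene count. F59E12.8 had 212, 157 and 140 downstream counts in xe31, against 162, 142 and 122 in WT, so its window did not fall. Its gene counts summed to 83 in xe31 and 1 in WT over the 3 hours. clec-161, a C-type lectin gene, had 29, 53 and 52 downstream counts in xe31 and 19, 29 and 55 in WT, while its gene counts summed to 192 in xe31 and 22 in WT. The gene rose in expression (log2 change of 3.03, adjusted p of 0.00125, edgeR with BH). The 3 other named falls, fipr-1, nspb-12 and acs-15, were not called against WT 1 h later, where their log2 changes were -0.72, -0.055 and 0.10. Their gene counts over the 3 hours were 310, 1435 and 1512 in xe31, against 97, 391 and 953 in WT.

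RNA in the window upstream of genes moved too, and almost only upward. Of 8511 genes tested, 524 had more upstream counts in xe31 (6.16%) and 22 fewer (6.42% called in all), and 368 and 3 under all 3 choices of WT hour. These calls are relative to library size. Relative to gene counts, 352 of 8465 genes tested had more upstream counts in xe31 (4.16%) and 21 fewer. F15H10.9 had 5, 30 and 113 upstream counts in xe31 and 0 at each hour in WT, at least 44.95-fold higher relative to library size. The gene itself had 5, 31 and 103 counts in xe31 and 0 at each hour in WT. F48C1.8 had 40, 43 and 45 upstream counts in xe31 and 0 at each hour in WT, while its gene counts summed to 99 in xe31 and 10 in WT. Where this window lies and how long it is are unknown here.

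Calls of more upstream RNA were set beside the genes' own expression. Among the risen genes with a tested window, 14.2% had more upstream RNA in xe31, among those risen over 2-fold 30.2%, among those risen under all 3 choices of WT hour 50% (37 of 74), among fallen genes 3.51% and among genes not called 5.2%. Among genes with a tested neighbour, one with a higher ratio stood beside 9.31% of 1321 risen genes, 16.9% of 89 risen under all 3 choices, and 6.22% of 10811 not called. Windows, genes and neighbours share reads where they overlap, so these shares describe the libraries and carry no test.

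phlp-2 is an example among the named rises. Its upstream window held 99 counts in xe31 and 20 in WT over the 3 hours (log2 change of 2.08, adjusted p of 6.64e-06, edgeR with BH). The neighbouring gene R74.8 had 23, 59 and 90 downstream counts in xe31 and 13, 14 and 12 in WT. ttr-20 stands next to ama-1, and its upstream window held 681 counts in xe31 and 382 in WT (adjusted p of 0.00639, edgeR with BH). For the other 8 of the 10 largest expression rises, no tested neighbour had a called readthrough, nrps-1 and jip-1 among them. Several neighbours of these genes were not tested, such as xpb-1 beside nrps-1 and C13A10.1 beside jip-1. The upstream windows of nrps-1 and jip-1 were not tested either. One of the 8, scrm-4, had more counts in its own upstream window in xe31 than in WT (log2 change of 0.94, adjusted p of 0.0098, edgeR with BH). Whether readthrough from a neighbour adds to a gene's count was not tested.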

How the data were processed

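Gene expression was measured by sequencing polyadenylated RNA (TruSeq Standard mRNA kit) of whole xe31 and N2 animals. The authors deposited whole-number read counts per gene, and counts per gene in windows downstream and upstream of it. Per the submitters' processing notes the build is ce10; no source used here names the aligner, the counter, the strand setting or how long the windows are. The upstream window is taken to lie before the gene. Overlapping or antisense genes and near-identical copies cannot be separated. Of 44200 gene IDs, 42362 had a symbol in the name table; 15438 genes had window counts. Neighbouring genes were taken from RefSeq WBcel235 (names and order only).

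Counts of all 22 libraries of the time course were fitted in edgeR 4.0.16 (R 4.3.3) with TMM factors, filterByExpr (minimum count of 10) and quasi-likelihood tests, 1 strain effect per window (0 to 2, 3 to 5 and 6 to 10 h) or per hour, and an hour term that pairs the strains at each hour. The pairing comes from the labels: libraries of both strains at the same hour. Calls are at a Benjamini-Hochberg adjusted p of 0.05 over all genes tested. Residual degrees of freedom were 8 in the window fits and 6 in the hour fits. The readthrough fit held the downstream counts and the gene counts of each library in 1 model, with a term for each library. It tested the strain effect on downstream counts beyond that on gene counts. Genes needed at least 20 downstream counts over the 22 libraries and a mean gene count of at least 10. CPM values are counts scaled to each library's TMM-adjusted size. A fold against a group at 0 uses a floor of 3 counts over the group. Exact sign-flip permutation tests (two-sided) served summed ratios, over genes of the window table. Total gene counts were 41238235 to 57832479 per library; intervals and floors cover counting error only.

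Named genes were xrn-2; the 10 largest rises and falls in expression whose log2 CPM averaged 2 or more and that kept direction at each hour and were called under all 3 choices of WT hour; up to 3 called members per gene list; the 15 largest rises and 5 largest falls of the readthrough ratio with at least 50 downstream counts in the higher group; the 5 largest upstream rises; and the 5 largest in each direction for each single hour, for each difference between hours or windows, and among genes whose middle effect exceeded both the early and the late one. Examples outside the rule are said to be so where they are shown, and col-129, toh-1, qua-1, lin-42, his-4 and spe-11 come from their lists. The members and lists were chosen with earlier results of these data known, and the lists come in part from an earlier analysis of the same files. Alternatives were DESeq2 1.42.0, RLE factors, other filters, limma 3.58.1 on log2 ratios, library size or upstream counts as the reference of the ratio, other WT hours, no hour term, and leaving out each hour. Python 3.11.15, pandas 2.3.3, numpy 2.4.6, scipy 1.17.1 and matplotlib 3.10.9 were used for summaries and plots.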

Additional observations from a re-analysis of the deposited data

Results flagged for a closer look

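For gene expression, the strain effect differed between windows or hours by edgeR's test of the difference itself; the values are log2 differences of the xe31 over WT change, for the 5 largest in each direction. From 0 to 2 h to 3 to 5 h, the effect was higher by 2.81 for col-179, 2.07 for col-124, 1.40 for col-122, 1.06 for col-20 and 1.03 for C33G8.2. It was lower for tsp-1 (-2.95), lys-3 (-2.11), K09C4.5 (-1.09), tag-344 (-1.09) and F38E1.3 (-0.98). Between 3 and 5 h it was higher for epic-2 (3.27), phlp-2 (3.03), col-149 (2.87), lpr-3 (2.25) and E04F6.6 (2.23), and lower for ugt-8 (-1.53), R03G8.6 (-1.16), tyr-6 (-1.11), col-184 (-0.82) and F16A11.1 (-0.80).

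At 6 to 10 h the expression effect was higher than at 3 to 5 h for dos-2 (4.29), F08G2.5 (3.54), C01F1.5 (3.27), F47B8.5 (3.14) and mam-3 (3.12), and lower for col-137 (-2.77), K10H10.4 (-2.69), K07E1.1 (-2.44), tyr-2 (-2.43) and C50F4.8 (-2.35). The effect on the downstream ratio was higher at 6 to 10 h for sun-1 (7.56), col-139 (6.50), rpl-33 (5.23), col-124 (5.14) and uba-1 (5.10), and lower for pqn-13 (-2.91), nas-3 (-2.91), Y116F11B.2 (-2.86), T10B5.10 (-2.80) and B0454.8 (-2.72).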

How the results depend on the processing

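Of the alternatives run on the counts and summed values, 84 moved the value by more than 1.5 times or 1 SD and the others did not; the causes were not tested. The number of genes called was 1713 higher and 888 lower for expression and 516 higher and 44 lower for the downstream ratio. DESeq2 gave 1828 and 889 for expression.

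Against WT 1 h earlier, 1563 genes were lower in expression, 146 had a lower ratio and 41 fewer upstream counts. The summed ratio difference was 0.310. For the middle minus early hours 87 genes were higher and 207 lower in expression and 1 higher in ratio. By hour, 1306, 936 and 102 genes were higher in expression at 3, 4 and 5 h, 9, 24 and 65 had a higher ratio, and 1 and 10 a lower ratio at 3 and 4 h. For 5 h minus 3 h there were 2 higher and 2 lower.

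Against WT 0.5 h later, expression gave 424 higher and 179 lower, the ratio 878 and 22, and the upstream window 841 and 14. Middle minus early gave 3 and 0 for expression and 2 higher for the ratio, and late minus middle 789 lower for expression and 372 higher and 32 lower for the ratio.

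Against WT 1 h later, expression gave 272 and 190, the ratio 28 lower, and the summed ratio 0.075. Middle minus early gave 171 and 75 for expression and 7 and 1 for the ratio, and late minus middle 934 lower. By hour, expression gave 0 and 0 at 3 h, 11 and 14 at 4 h, 25 and 4 at 5 h, and 0 and 0 for 5 h minus 3 h, and the ratio 59 higher and 1 lower at 3 h. The expression change turned negative for ssp-34 (-0.39), spe-11 (-0.18), perm-4 (-0.485), perm-2 (-0.76, and -0.003 against WT 0.5 h later), lin-41 (-0.068), alg-3 (-0.20), alg-4 (-0.13), lab-1 (-0.26), col-129 (-1.05), col-179 (-0.92), col-124 (-0.99), cutl-23 (-0.52), cutl-20 (-0.094), toh-1 (-0.53), nas-30 (-0.64), nlp-25 (-0.40), sip-1 (-0.37) and clec-175 (-0.13). It turned positive for lin-42 (0.26), myrf-1 (0.48), grl-10 (0.54), grd-1 (0.57), qua-1 (0.79), tag-275 (0.18), nhr-234 (0.36), hsp-17 (0.74), pdi-2 (0.21), dnj-27 (0.32), spp-13 (0.57), cyp-42A1 (0.585) and fbxa-115 (0.074), of which myrf-1 (0.005), qua-1 (0.017) and hsp-17 (0.155) also did against WT 0.5 h later. The ratio of acs-15 turned positive (0.10).

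The pairing by hour changed the counts: without the replicate block (no hour term), 57 genes were higher and 2 lower in expression, and 239 higher and 4 lower in ratio. On the 6 libraries alone expression gave 0 and 0. With limma and a pseudocount of 5, the ratio gave 319 and 137 with a median of 0.041. With upstream counts as the reference it gave 89 higher, with a median of 0.057 and a summed difference of -0.051. Relative to library size, the downstream changes of F59E12.8 (0.11) and clec-161 (0.30) were positive.

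Leaving out 1 hour gave 663 to 1509 higher and 140 to 734 lower for expression, 195 to 394 and 8 to 26 for the ratio, and 269 to 461 and 7 to 22 for the upstream window. Middle minus early gave 1 to 109 and 0 to 347, and late minus middle 218 to 1234 and 160 to 2031 for expression and 119 to 605 and 8 to 55 for the ratio.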
